A study of Mus musculus with 2 samples.

Results

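Cxcr3, Cxcr6, Ccr2, Ccr6, Cx3cr1 and Xcr1 are 6 chemokine receptor genes, chosen by symbol from the 31053 genes that were counted. They were followed through the cells of the mediastinal lymph nodes (MedLNs), which drain the lung, in mice with and without butyrate. All 6 were present in both gene tables. The genes were taken by name, but with earlier results of these data known. Which cells held them and how they differed between the libraries is therefore given as a description.

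The cells came from wild-type C57/B6J mice of 5 to 13 weeks with ovalbumin (OVA)-induced asthma, which received 50 µg OVA on days 0 and 7, were challenged from day 14 to day 16 and gave their MedLNs on day 17. The total cells of 4 pooled mice made 1 droplet library without butyrate, and those of 4 others made 1 library with butyrate, a short-chain fatty acid that the labels call C4. Both groups carried the same OVA model, no unchallenged mice are compared here, and the route and dose of butyrate for these mice are not given in the sources used here. With 1 library per condition there was no replicate of either condition, so no test was made, and an effect of butyrate and a difference between pools, days or libraries cannot be told apart.

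Chemokine receptors are membrane proteins that couple to Gi proteins and let a cell migrate along a gradient of the ligand. CXCR3 guides activated and memory T cells and plasma cells to the interferon-induced ligands CXCL9 and CXCL10, and CXCR6 binds CXCL16 and is known from effector, tissue-resident and NKT cells. CCR2 binds CCL2 and brings monocytes out of the bone marrow and into inflamed tissue, CX3CR1 binds CX3CL1 and marks monocytes, macrophages and cytotoxic effector cells, CCR6 binds CCL20 and is found on B cells and type 17 T cells, and XCR1 binds XCL1 and marks the dendritic cells (cDC1) that cross-present antigen.

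In the GENCODE M21 annotation of mm10, the build named in the submitters' processing notes, 4 of the 6 genes lay on chromosome 9. Cxcr6 (ENSMUSG00000048521) was at chr9:123806475-123811760 on the plus strand, Xcr1 (ENSMUSG00000060509) at chr9:123852315-123862029 on the minus strand and Ccr2 (ENSMUSG00000049103) at chr9:124101950-124113557 on the plus strand. Cxcr6 and Xcr1 were thus 40.6 kb apart, and Xcr1 and Ccr2 240 kb. Cx3cr1 (ENSMUSG00000052336) lay at chr9:119901616-120069879 on the minus strand, 3737 kb from Cxcr6. Cxcr3 (ENSMUSG00000050232) was at chrX:101731535-101734269 on the minus strand, and Ccr6 (ENSMUSG00000040899) at chr17:8236043-8257141 on the plus strand. All 6 are annotated as protein-coding.

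The Cxcr3 and Cxcr6 promoters are shown because Cd8a+ cells held more UMIs of both receptors than any other gate, with Cxcr3 mainly in cells with memory markers and Cxcr6 across their subsets, as described below. The sequences are those of RefSeq for GRCm38.p6 and run 5′ to 3′ up to the base before the first annotated start, chrX:101734270-101734397 on the minus strand for Cxcr3 and chr9:123806227-123806474 on the plus strand for Cxcr6.
Cxcr3: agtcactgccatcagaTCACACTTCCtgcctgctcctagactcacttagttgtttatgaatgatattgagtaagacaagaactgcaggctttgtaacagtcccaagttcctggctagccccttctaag
Cxcr6: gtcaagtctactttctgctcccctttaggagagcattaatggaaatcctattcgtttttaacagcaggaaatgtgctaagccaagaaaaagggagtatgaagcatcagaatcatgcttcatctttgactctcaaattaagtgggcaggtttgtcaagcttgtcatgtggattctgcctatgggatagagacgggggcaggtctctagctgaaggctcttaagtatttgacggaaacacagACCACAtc
Capitals mark matches to 3 short cores searched on both strands. These were TCACAC of T-box factors, ACTTCC of Ets factors and ACCACA of Runx factors. In Cxcr3 the T-box and Ets cores overlap. The window of 250 bases before the RefSeq start of Cxcr3 runs past a start in GENCODE, and the part not printed held an ACTTCC and an ACCACA more. Among 32851 promoters, the 250 bases before the start held TCACAC in 12.3%, ACTTCC in 19.7% and ACCACA in 14%, so such matches are common and are given as a description of the letters.

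The library without butyrate held 9681 cells and 59176459 unique molecular identifiers (UMIs, each standing for 1 captured transcript), and that with butyrate 8932 cells and 58381292 UMIs. Cells rich in mitochondrial UMIs (more than 10%) or poor in genes (fewer than 200), 186 and 327 of them, and 721 and 592 likely doublets were taken out, and 8774 and 8013 cells remained, with median depths of 5069 and 5648 UMIs. The libraries shared 22 barcodes among the cells kept. Cells were sorted by UMIs of 6 marker genes into gates that are called by these genes: B (Cd79a, 4218 and 3915 cells), Cd4+ without Foxp3 (994 and 860), Foxp3+ (178 and 166), Cd8a+ (1582 and 1530), Tcrg-C1+ (50 and 61) and Lyz2+ (32 and 33). None of the 6 markers was found in 1169 and 865 cells, and markers of more than 1 gate in 551 and 583. A UMI of a CD3 gene, which marks T cells, was found in over 99% of the cells of each T cell gate, in 10.1% and 11.3% of the B gate, and in 18.8% and 42.4% of the Lyz2+ gate, so the last holds T cells as well as myeloid cells. Throughout, the value without butyrate stands first where 2 values are given. Intervals are at 95%, exact, and cover counting error only. Those of ratios take each UMI as a separate draw, so they do not cover the spread of UMIs between cells.

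At least 1 of the receptors was found in 29.4% of all cells without butyrate and in 32.5% with butyrate. The share was 35.7% and 36.4% in the B gate, almost all of it Ccr6, and 38.4% and 44.1% in the Cd8a+ gate, almost all of it Cxcr3 and Cxcr6. In the Cd4+ gate it was only 5.53% and 6.28%. It was highest in the Tcrg-C1+ gate, at 56.0% and 72.1%. Cells with 2 of the receptors numbered 164 and 214, and cells with 3 or more 30 and 37. Many cells with a receptor held it at the limit of detection. Of the cells with Cxcr3, 64.4% and 59.4% had just 1 UMI of it, and for Cxcr6 these shares were 71.8% and 60.8%, for Ccr2 48.5% and 40.3%, for Ccr6 65.5% and 64.1% and for Cx3cr1 48.6% and 42.9%. The shares below are therefore shares of cells with a UMI, which rise with the depth of a cell, and not shares of cells that express the receptor.

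**Figure D1:**
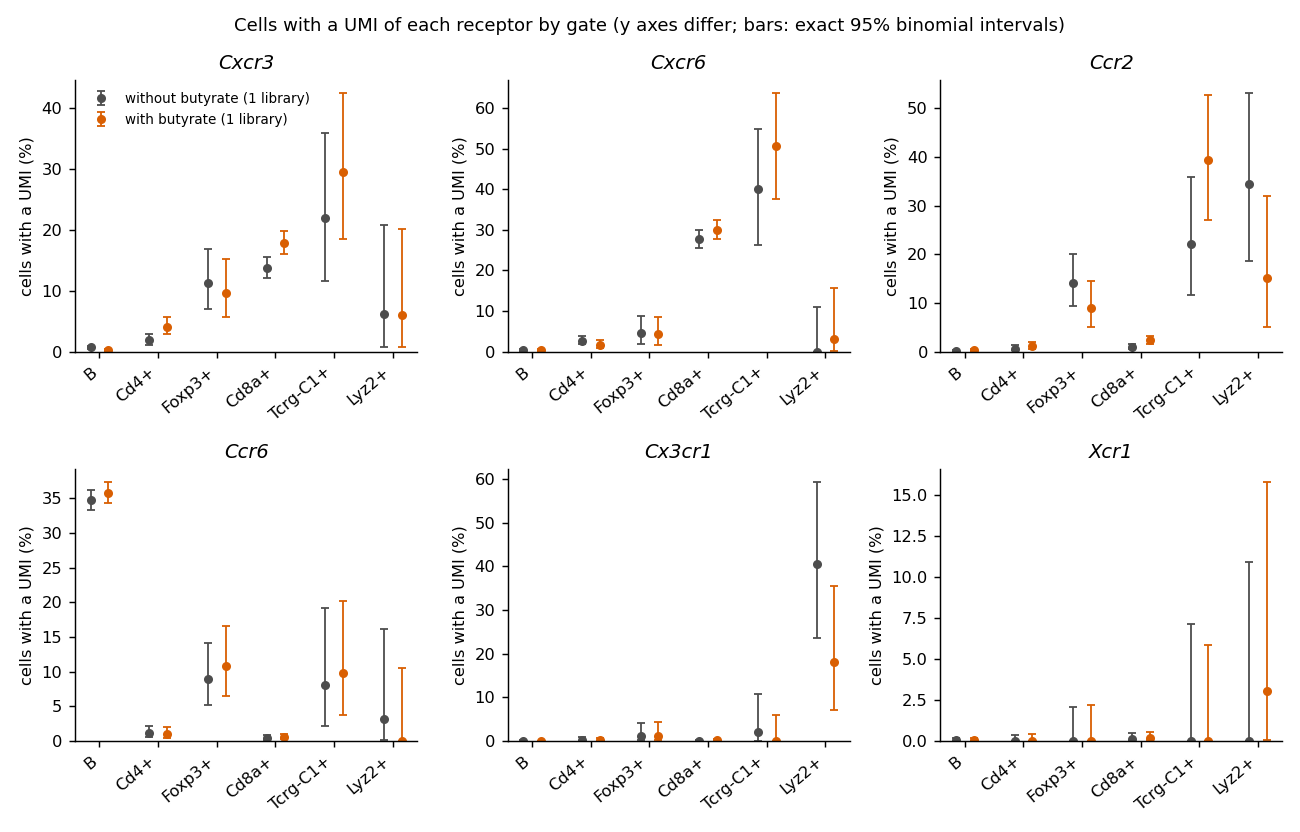
Share of cells with at least 1 UMI of each receptor (y axis, percent, a different range in each panel) in the 6 gates (x axis), without (grey) and with butyrate (orange), with exact 95% binomial intervals that cover counting error only. Cxcr3 and Cxcr6 lie mainly in T cell gates other than Cd4+, Ccr6 in the B gate at 34.7% and 35.8%, and Cx3cr1 in the Lyz2+ gate.

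Over all cells there were 654 and 798 UMIs of Cxcr3, 984 and 1273 of Cxcr6, 450 and 534 of Ccr2, 2436 and 2427 of Ccr6, 112 and 66 of Cx3cr1, and 7 and 22 of Xcr1. The Cd8a+ gate held 48.0% and 54.6% of the Cxcr3 UMIs and 58.8% and 55.1% of those of Cxcr6. The B gate held 93.6% and 91.6% of the Ccr6 UMIs. Ccr2 was spread over the gates. Among the 6 gates, the largest shares of its UMIs lay in the Lyz2+ gate (28.0% and 20.8%) and the Foxp3+ gate (19.6% and 15.4%), although these gates are small. Of the Cx3cr1 UMIs, 34.8% and 30.3% lay in the Lyz2+ gate, and 41.1% and 50% in cells with markers of more than 1 gate.

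**Figure D2:**
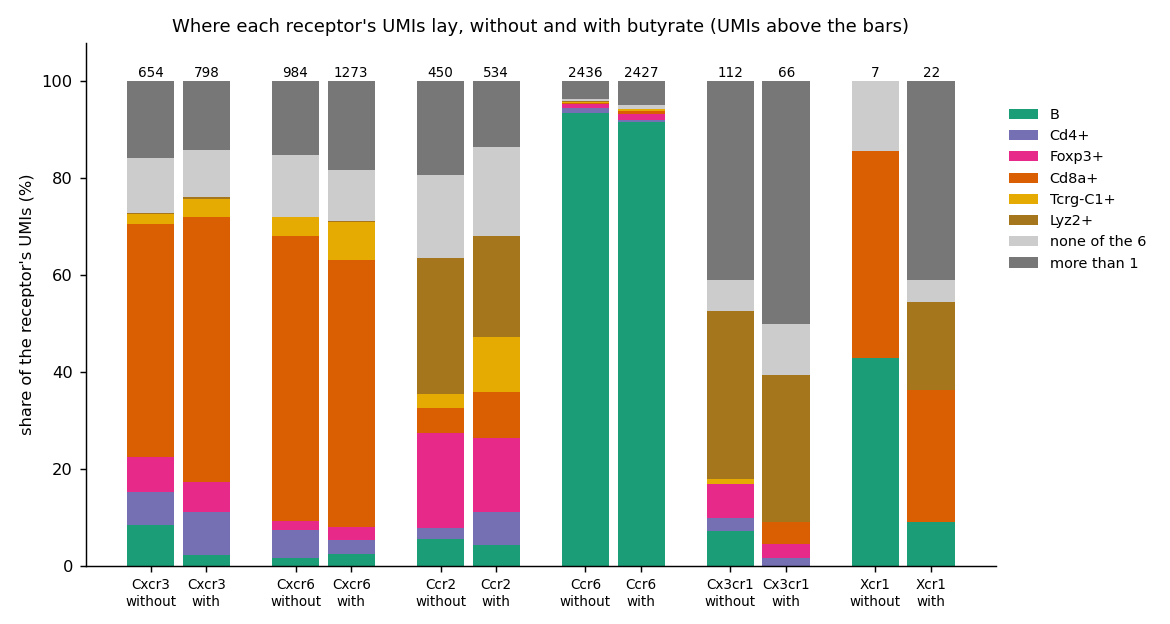
Share of all UMIs of each receptor (y axis, percent) that lay in each of the 6 gates, in cells with none of the 6 markers and in cells with markers of more than 1 gate (colours), for the library without and with butyrate, with the number of UMIs above each bar. More than 90% of Ccr6 UMIs lay in the B gate, whereas Ccr2 UMIs were divided among all gates.

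Between the libraries, Cxcr3 and Cxcr6 in the Cd8a+ gate and Ccr6 in the B gate, where they were mainly found, were within 1.5-fold. Among the gates, Lyz2+ held the most UMIs of Ccr2 and Cx3cr1 but had too few cells for the rule below. Xcr1 had too few UMIs. UMIs were summed over the cells of a gate, scaled to the total of the gate (CPM) and compared as the log2 ratio with over without butyrate. A ratio was counted where the gate had 100 or more cells in each library and the gene 50 or more UMIs in the libraries together, and was called if it passed 1.5-fold. In the Cd8a+ gate, 1 of the 3 receptors compared was past 1.5-fold, beside 3.75% of all 9399 genes. In the B gate it was 1 of 2, beside 4.66% of 10429 genes. In the Cd4+ gate it was 2 of 2, beside 4.82% of 8511 genes. In the Foxp3+ gate it was 2 of 4, beside 9.04% of 5279 genes. The 6 called values rest on 55 to 115 UMIs each, and the 3 comparisons with the most UMIs, of Cxcr3 and Cxcr6 in the Cd8a+ gate and of Ccr6 in the B gate, were within 1.5-fold. All gates were compared between the same pair of libraries.

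**Figure D3:**
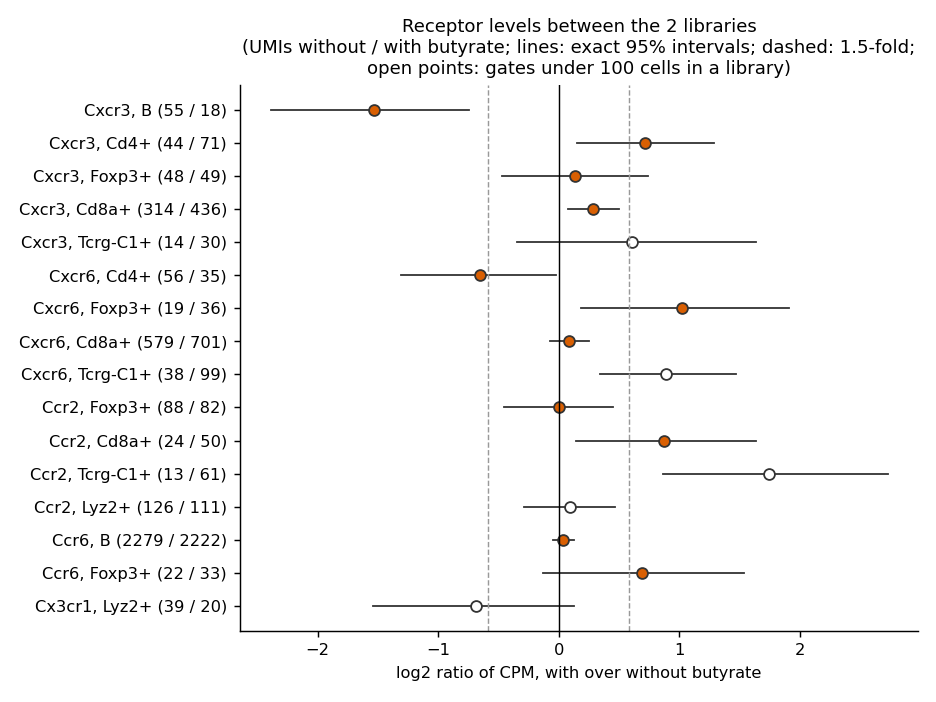
Log2 ratio of CPM with over without butyrate (x axis) for receptors and gates (y axis, with the UMIs in each library), with exact 95% intervals for counting error, dashed lines at 1.5-fold and open points for gates under 100 cells. Cxcr3 in the B gate lies at -1.54 and Ccr6 in the B gate at 0.04.

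Cxcr3 was found mainly in CD8 T cells, where the share was higher with butyrate. Of the Cd8a+ cells, 217 of 1582 (13.7%, 12.1 to 15.5) held it without butyrate and 273 of 1530 (17.8%, 16 to 19.9) with it. The level was 27.9 and 34.0 CPM, a log2 ratio of 0.29 (0.07 to 0.50), which is within 1.5-fold. Cells of this gate were deeper with butyrate, with a median of 7758 against 6636 UMIs. When each cell was thinned to 2000 UMIs the shares were 3.23% and 5.56%.

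The gates came in the order Tcrg-C1+, Cd8a+, Foxp3+, Lyz2+, Cd4+ and B in both libraries. In the Tcrg-C1+ gate Cxcr3 was found in 11 of 50 (22.0%) and 18 of 61 cells (29.5%), in the Foxp3+ gate in 20 of 178 (11.2%) and 16 of 166 (9.64%), and in the Lyz2+ gate in 2 of 32 and 2 of 33. Neighbours in this order had overlapping intervals, except for Cd4+ and B in both libraries and for Cd8a+ and Foxp3+ with butyrate. In the Foxp3+ gate the level of 36.7 and 40.3 CPM was nearly the same, with a log2 ratio of 0.13 (-0.47 to 0.74).

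Cxcr3 was rare in the Cd4+ gate, with 19 of 994 cells (1.91%, 1.16 to 2.97) without and 35 of 860 (4.07%, 2.85 to 5.62) with butyrate. Its 44 and 71 UMIs gave 7.83 and 12.9 CPM and a log2 ratio of 0.71 (0.15 to 1.29). A call in the Cd4+ gate, of Cxcr3 or Cxcr6, was lost when each cell needed a CD3 UMI. Thinned to 2000 UMIs, the shares were 0.909% and 1.87%, a log2 ratio of 1.04, beside 1.09 for the shares before thinning. For the background, B gate cells outside the antibody-secreting cells described below held Cxcr3 in 0.455% and 0.230% of cells at median depths of 4397 and 4620 UMIs. The Cd4+ gate had 5209 and 5958.

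Within the Cd8a+ gate, Cxcr3 followed memory markers. Cells with Cd44, which is higher on cells that have met antigen, held Cxcr3 in 64 of 150 (42.7%, 34.6 to 51.0) without and 91 of 167 (54.5%, 46.6 to 62.2) with butyrate. Cells without Cd44 held it in 10.7% and 13.4%. Thinned, the shares were 10.7% and 17.4% with and 2.45% and 4.11% without Cd44. The step from cells without to cells with Cd44 was larger than that between the libraries.

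The split was sharper by Ly6c2, a surface antigen of memory CD8 T cells, and Ccr9, the receptor for gut homing that recent thymic emigrants also carry. Of cells with Ly6c2 and no Ccr9, 184 of 639 (28.8%) and 223 of 621 (35.9%) held Cxcr3. Of cells with Ccr9 and no Ly6c2, only 2 of 372 (0.538%) and 4 of 352 (1.14%) did. Cells with both had 7.38% and 13.6%, and cells with neither 4.74% and 6.47%. Median depths were 7650 and 8974 UMIs in the first and 5919 and 6962 in the second subset.

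Among the transcription factors, Cxcr3 was found in 24 of 34 and 33 of 58 Cd8a+ cells with Tbx21, which encodes T-bet, an activator of Cxcr3, against 12.5% and 16.3% of cells without it. For Eomes, the related T-box factor of memory cells, the shares were 27.1% and 34.9% with and 10.1% and 10.6% without it. Il2rb, the β chain of the IL-2 and IL-15 receptors, gave 27.2% and 31.9% against 6.58% and 9.63%. Of cells with Ifng, 14 of 29 and 24 of 35 held Cxcr3. In the other direction, Cxcr3 was found in 3.73% and 6.13% of the cells with Itgae, the integrin CD103, against 15.8% and 21.0% of those without.

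Levels of other genes in Cd8a+ cells with and without Cxcr3 gave the same picture, now as log2 ratios of CPM between these cells inside each library. Here and for the other receptors, genes were ranked by the lower of their ratios in the 2 libraries, so a gene high in 1 library alone ranks lower. The first 5 were Cenpf (4.24 without and 5.29 with butyrate), Klra1 (4.13 and 4.84), Ube2c (4.04 and 4.31), Nrn1 (4.13 and 3.64) and Kif11 (3.51 and 4.08). In cells without Cxcr3 these genes lay at only 0.305 to 2.24 CPM, so the size of the ratios is uncertain. Cenpf, Ube2c and Kif11 serve mitosis, and Klra1 encodes an inhibitory Ly49 receptor. Tbx21 (3.57 and 2.17), Ifng (2.13 and 2.93) and Cd44 (1.47 and 2.04) were higher as well. Ccr9 (-2.72 and -3.05) and Lef1, a factor of naive T cells (-0.58 and -0.82), were lower. Cells with Cxcr3 were deeper, with medians of 8902 and 10091 UMIs against 6420 and 7449. Over 4 equal bins of depth, the share of Cd8a+ cells with Cxcr3 ran from 3.28% in the shallowest to 34.4% in the deepest bin without butyrate and from 3.92% to 43.2% with butyrate. The part of depth in these ratios was not tested beyond thinning.

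**Figure D4:**
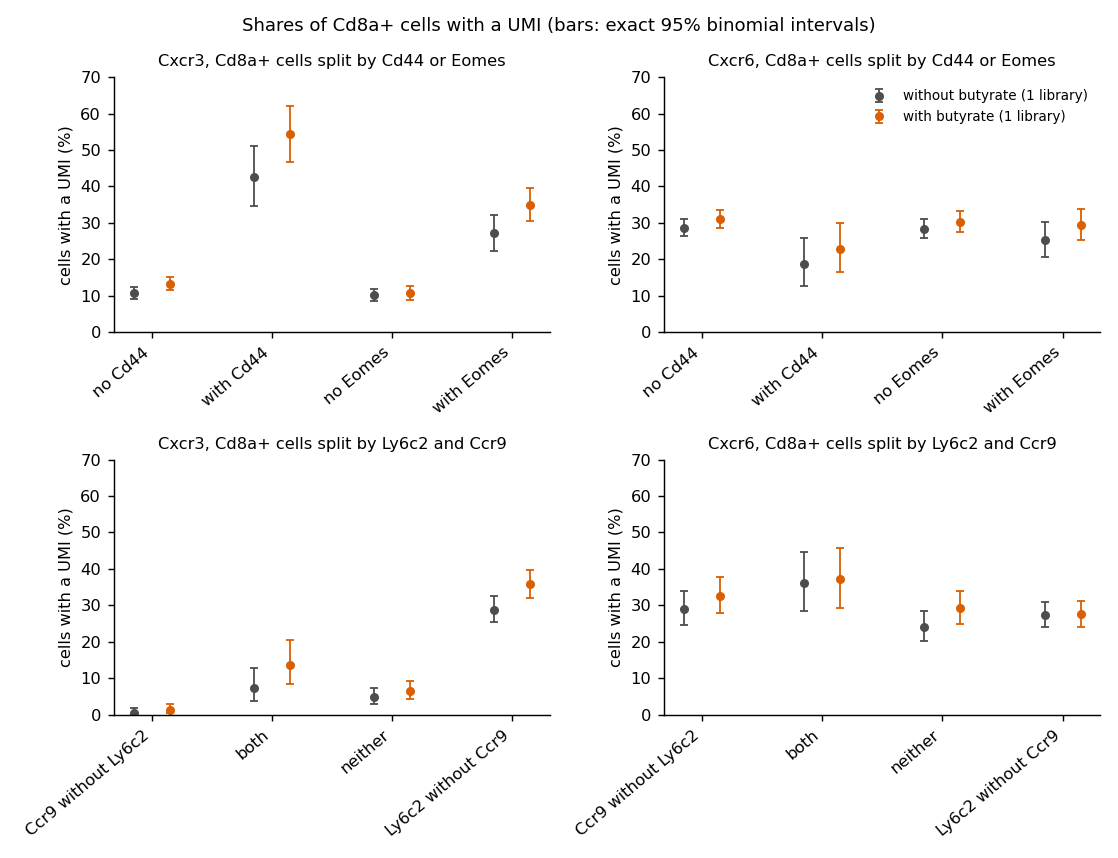
Share of Cd8a+ cells with a UMI of Cxcr3 (left) or Cxcr6 (right) on the y axis (percent), split on the x axis by UMIs of Cd44 or Eomes (top) or of Ly6c2 and Ccr9 (bottom), without (grey) and with butyrate (orange), with exact 95% binomial intervals. Cxcr3 runs from 0.538% to 54.5% over these subsets, while Cxcr6 stays between 18.7% and 37.1%.

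Cxcr3 was rare in the B gate, and its summed level there was lower with butyrate. Antibody-secreting cells, marked by high Jchain, were too few with butyrate for a comparison of shares. Among the other cells without CD3 the level was lower too, on few UMIs. Cxcr3 was found in 29 of 4218 B gate cells (0.688%) without and 9 of 3915 (0.230%) with butyrate. The 55 and 18 UMIs gave 2.42 and 0.834 CPM and a log2 ratio of -1.54 (-2.39 to -0.75). Cells with at least 50 UMIs of Jchain, the joining chain of secreted IgM and IgA, numbered 38 without and 6 with butyrate. This threshold was set after the values were seen. Of the 38, 10 (26.3%) held Cxcr3, with 27 of the 55 UMIs. Of the 6 with butyrate none did, with an interval up to 45.9%, which also covers the share without butyrate. The 38 cells had a median depth of 26180 UMIs, against 4397 in the other B gate cells of that library. Their Cxcr3 level was 25.2 CPM, and the part of depth in their share was not tested.

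Of those 38 cells, 14 also held at least 50 UMIs of Ighg2c, the heavy chain of an IgG class driven by interferon-γ, and 9 of these 14 (64.3%, 35.1 to 87.2) held Cxcr3. No such cell was found with butyrate. The 14 cells had a median depth of 24294 UMIs. The Ighg2c threshold, too, was set after the values were seen. Without the cells with high Jchain the log2 ratio was -0.62 (-1.56 to 0.29), but in the library with butyrate 1 cell with CD3 UMIs held 9 of the 18 UMIs. Among B gate cells with neither CD3 nor high Jchain, Cxcr3 was found in 15 of 3761 and 3 of 3469, with 24 and 3 UMIs and a log2 ratio of -2.96 (-5.33 to -1.24). The level in the B gate thus rested on few cells in each library. With no doublet removal the log2 ratio was -0.50.

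Cxcr6 was the receptor found in the largest share of CD8 T cells, and it was found in each of their subsets. It was detected in 439 of 1582 Cd8a+ cells (27.8%, 25.6 to 30.0) without and 460 of 1530 (30.1%, 27.8 to 32.4) with butyrate. The level of 51.4 and 54.7 CPM gave a log2 ratio of 0.09 (-0.07 to 0.25), an interval that holds no difference of 1.5-fold. Thinned, the shares were 11.1% and 10.5%. Of these cells, 337 and 303 had 1 UMI. For the background, B gate cells held Cxcr6 in 0.308% and 0.434%, at median depths of 4410 and 4622 against 6636 and 7758 UMIs. Of the B gate cells, 10.1% and 11.3% had a CD3 UMI, and their part in these shares was not tested.

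Cd8a+ cells with Cd44 held Cxcr6 in 18.7% (12.8 to 25.8) and 22.8% (16.6 to 29.9), and those without Cd44 in 28.7% and 31.0%. With Eomes the shares were 25.3% and 29.4%, and without it 28.4% and 30.4%. By Ly6c2 and Ccr9 the shares were 27.4% and 27.5% for Ly6c2 alone, 29.0% and 32.7% for Ccr9 alone, 36.2% and 37.1% for both and 24.2% and 29.3% for neither. Cxcr6 was thus found in cells without memory markers too, and its lowest share was in those with Cd44. Its share also moved little with depth, from 25.3% in the shallowest to 29.9% in the deepest of 4 equal bins of Cd8a+ cells without butyrate and from 24.8% to 33.0% with butyrate. The presence of Cxcr3 made little difference to it, since Cxcr6 was in 28.6% and 26.0% of the Cd8a+ cells with Cxcr3 and in 27.6% and 31.0% of those without.

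No gene separated Cd8a+ cells with and without Cxcr6 the way the mitotic genes did for Cxcr3. In the same ranking the first 5 were Gpr34 (0.79 and 1.03), Spata24 (1.19 and 0.72), Manea (0.66 and 0.70), Cnga1 (0.66 and 0.66) and Ddc (0.75 and 0.63). Among the listed factors and state genes, Irf8 (-1.23 and -1.17), Cd44 (-1.06 and -0.89) and Eomes (-0.50 and -0.37) were lower in cells with Cxcr6. Median depths were close, at 6817 and 7956 UMIs with and 6562 and 7696 without it.

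Among Cd4+ cells, by contrast, Cxcr6 lay in cells with effector markers. It was found in 27 of 994 (2.72%) and 15 of 860 cells (1.74%), with 56 and 35 UMIs or 9.96 and 6.33 CPM, a log2 ratio of -0.65 (-1.31 to -0.02). Of cells with Cd44, 15 of 113 (13.3%) and 10 of 143 (6.99%) held it, and of cells without Cd44 1.36% and 0.697%. Cd4+ cells with Maf, a factor of Th2 and follicular helper cells, held Cxcr6 in 19.8% and 14.5%, against 0.344% and 0.386% without Maf. Of cells with Il4, the type 2 cytokine, 9 of 27 and 5 of 18 held it, and of those with Pdcd1 14 of 59 and 7 of 41. With the doublets kept the log2 ratio was -0.18, within 1.5-fold.

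The Foxp3+ gate held Cxcr6 in 8 of 178 (4.49%) and 7 of 166 cells (4.22%). Its 19 and 36 UMIs gave 14.5 and 29.6 CPM and a log2 ratio of 1.03 (0.19 to 1.91), but the share of cells was not higher with butyrate and the ratio of shares was -0.09. The cells that held it had more UMIs of it with butyrate, up to 9 in a cell against 4. The share in the Lyz2+ gate was 0 of 32 without butyrate, which allows up to 9.38%, and 1 of 33 with butyrate.

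Ccr2 was found in Lyz2+ cells, Foxp3+ cells and Tcrg-C1+ cells. In the Lyz2+ gate 11 of 32 cells (34.4%, 18.6 to 53.2) without and 5 of 33 (15.2%, 5.11 to 31.9) with butyrate held it. Their 126 and 111 UMIs gave nearly the same level, 482 and 514 CPM, and with butyrate 1 cell held 41 of the 111. The log2 ratio was 0.09 (-0.29 to 0.47). The lower share goes along with the higher share of cells with CD3 in that gate, which was 42.4% against 18.8%, and the part of these cells was not tested. Among Lyz2+ cells with no CD3 UMI, Ccr2 was found in 10 of 26 and 4 of 19. In B gate cells it was found in 0.213% and 0.230%.

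Cx3cr1 lay in the same cells. In the Lyz2+ gate it was found in 13 of 32 (40.6%, 23.7 to 59.4) and 6 of 33 cells (18.2%, 6.98 to 35.5), with 39 and 20 UMIs or 149 and 92.6 CPM. The log2 ratio of -0.69 had an interval from -1.54 to 0.13 and the gate is under the minimum of cells. Of the Lyz2+ cells without CD3, 12 of 26 and 5 of 19 held Cx3cr1, and 9 and 3 of them held Ccr2 too. These cells were split by 5 myeloid genes picked after the values were seen. Ly6c2 and Plac8, a gene of inflammatory monocytes, gave the clearest splits without butyrate, and Plac8 gave the clearest with butyrate. Ccr2 was in 9 of 10 and 4 of 7 cells with Plac8 and in 1 of 16 and 0 of 12 without it. Cx3cr1 was in 8 of 10 and 4 of 7 with Plac8 and in 4 of 16 and 1 of 12 without it. Of cells with Ly6c2, 9 of 9 and 2 of 3 held Ccr2, and of cells without it 1 of 17 and 2 of 16, which with butyrate held 67 of the 87 Ccr2 UMIs. For the other 3 genes the split was less clear. Ccr2 was in 3 of 12 and 2 of 10 cells with C1qa against 7 of 14 and 2 of 9 without, in 6 of 9 and 2 of 4 with Adgre1 against 4 of 17 and 2 of 15, and in 1 of 4 and 0 of 2 with S100a8 against 9 of 22 and 4 of 17.

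Cx3cr1 was rare in the B and T cell gates, although 15 of the 35 and 8 of the 21 cells that held it had a CD3 UMI. No Cd8a+ cell of 1582 held it without butyrate, which allows up to 0.190%, and 2 of 1530 did with butyrate. In the B gate it was found in 3 of 4218 cells without and in 0 of 3915 with butyrate, which allows up to 0.0766%. In the Cd4+ gate it was in 3 and 1 cells, in the Foxp3+ gate in 2 and 2 and in the Tcrg-C1+ gate in 1 and 0. Among the cells with at least 2 NK cell markers it was in 1 of 12 and 1 of 16. These limits are for cells with a captured UMI, not for cells with the receptor.

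In the Foxp3+ gate, of regulatory T cells, Ccr2 was found in 25 of 178 (14%, 9.30 to 20) and 15 of 166 cells (9.04%, 5.15 to 14.5). The level was 67.4 and 67.5 CPM, a log2 ratio of 0.00 (-0.45 to 0.45). The cells that held it carried effector genes in both libraries. With S100a4, a calcium-binding protein of activated cells, 18 of 41 and 13 of 33 held Ccr2, against 5.11% and 1.5% without. With Il1rl1, the IL-33 receptor ST2, it was 12 of 23 and 7 of 14. With Ccr7, the receptor that guides naive cells into lymph nodes, it was 4 of 59 and 0 of 58. Maf gave 20 of 63 and 13 of 53, against 4.35% and 1.77% without it.

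Ccr6 and Cxcr3 were also found in the Foxp3+ gate, and Cxcr3 shared some of the markers of Ccr2 there. Ccr6 was in 16 of 178 (8.99%) and 18 of 166 cells (10.8%), with 22 and 33 UMIs and a log2 ratio of 0.69 (-0.13 to 1.54). On cells thinned to 2000 UMIs the ratio of shares turned to -0.31. With Rora, a factor of type 17 cells, 8 of 51 and 10 of 42 Foxp3+ cells held Ccr6, against 6.30% and 6.45% without it. Cxcr3 was in 15 of 41 and 10 of 33 cells with S100a4, against 3.65% and 4.51% without, and in 14 of 63 and 13 of 53 cells with Maf. In the library with butyrate, Cxcr3 was in 3 of 38 cells with and 13 of 128 without Cd44. Ccr2 was in 6 of 38 and 9 of 128, and these counts are too few to tell the receptors apart. Without butyrate Cxcr3 was in 8 of 47 and 12 of 131, and Ccr2 in 13 of 47 and 12 of 131. Of the Foxp3+ cells with Cxcr3, 5 of 20 and 5 of 16 held Ccr2.

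The Tcrg-C1+ gate had the highest shares of Cxcr6, and Ccr2 and Cxcr6 went together in it. Tcrg-C1 encodes a constant region of the γ chain of γδ T cells, and all 50 and 61 cells had CD3 UMIs. Cxcr6 was found in 20 (40%, 26.4 to 54.8) and 31 cells (50.8%, 37.7 to 63.9), Ccr2 in 11 (22.0%, 11.5 to 36) and 24 (39.3%, 27.1 to 52.7). The levels were 144 and 268 CPM for Cxcr6, a log2 ratio of 0.89 (0.34 to 1.47), and 49.4 and 165 CPM for Ccr2, a log2 ratio of 1.74 (0.86 to 2.73). The gate is under the minimum of 100 cells, and these ratios were not counted as calls.

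Of the Tcrg-C1+ cells with Ccr2, 8 of 11 and 21 of 24 held Cxcr6, against 30.8% and 27.0% of those without Ccr2. Thinned, the counts were 2 of 3 and 12 of 15 against 8 of 47 and 6 of 46, too few to tell without butyrate. Cells with Cd44 held Ccr2 in 7 of 16 and 16 of 26, and cells without it in 4 of 34 and 8 of 35. For Cxcr6 the counts were 9 of 16 and 19 of 26 with Cd44, and 11 of 34 and 12 of 35 without it. For Cxcr3 they were 6 of 16 and 10 of 26 against 5 of 34 and 8 of 35.

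The makeup of the gate was not the same in the libraries, with Cd44 in 16 of 50 cells without and 26 of 61 with butyrate, and Il18r1, the IL-18 receptor of type 1 and type 17 cells, in 16 and 29. The part of these cells in the higher Ccr2 and Cxcr6 shares with butyrate was not tested. With Ccr7, 0 of 21 and 0 of 24 cells held Ccr2. With Il18r1, 7 of 16 and 22 of 29 held Ccr2, against 4 of 34 and 2 of 32 without it, and 9 of 16 and 25 of 29 held Cxcr6, against 11 of 34 and 6 of 32. Cxcr3 did not follow this split, with 3 of 16 and 9 of 29 against 8 of 34 and 9 of 32. With Rora, 9 of 14 and 16 of 17 held Cxcr6.

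**Figure D5:**
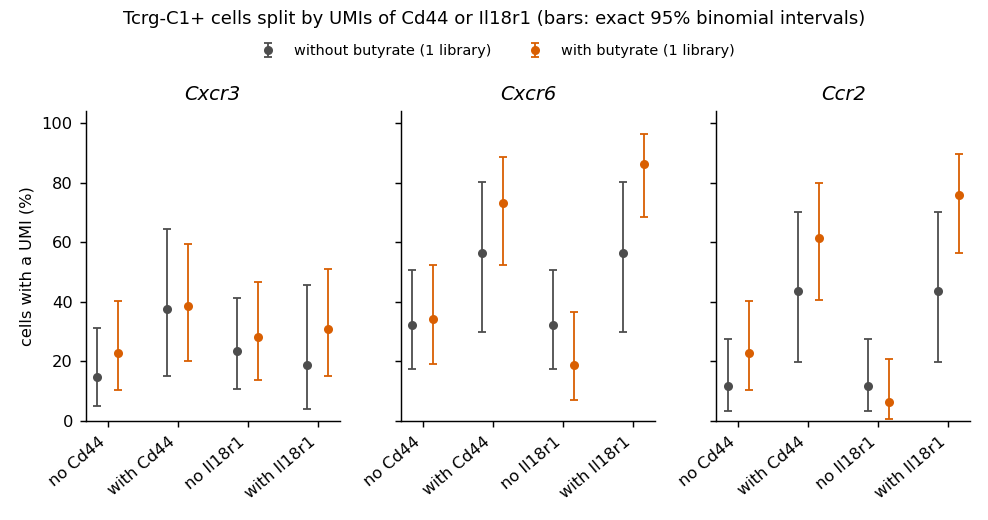
Share of Tcrg-C1+ cells with a UMI of Cxcr3, Cxcr6 or Ccr2 (y axis, percent) in cells without and with UMIs of Cd44 or of Il18r1 (x axis), without (grey) and with butyrate (orange), with exact 95% binomial intervals. Ccr2 goes from 4 of 34 and 2 of 32 cells without Il18r1 to 7 of 16 and 22 of 29 with it.

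Ccr2 was rare in the Cd8a+ gate, with 16 of 1582 (1.01%) and 36 of 1530 cells (2.35%). Its 24 and 50 UMIs gave 2.13 and 3.90 CPM and a log2 ratio of 0.87 (0.14 to 1.64). Of these cells, 5 of 16 without and 28 of 36 with butyrate held Cxcr3 too, but thinned there were 1 of 4 and 2 of 9, too few to tell. Cd4+ cells had 10 and 36 UMIs of Ccr2, under the minimum for a ratio.

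Cells with none of the 6 gate markers held Ccr2 in 33 of 1169 and 37 of 865. These cells were looked at after the values were seen, since the gate with the most Ccr2 cells, Cd8a+, held fewer than 20 of them without butyrate. Ranked in the same way against the other cells of that class, the first 5 genes were Ltb4r1 (7.47 and 7.45), Arg1 (7.83 and 7.41), Areg (6.98 and 7.41), Ifitm1 (7.40 and 5.44) and Klrg1 (6.17 and 5.31). In those other cells these genes lay at only 0.427 to 6.82 CPM, so the size of the ratios is uncertain. Arg1, Areg and Klrg1 are known from type 2 innate lymphoid cells and Klrg1 also from NK cells, and Rora (3.55 and 3.60) and Gata3 (2.12 and 2.10), factors of the former, were higher too. So were genes of NK cells, among them Klra4 (8.19 and 4.35), Gzma (5.35 and 4.24), Klre1 (4.43 and 3.85) and Eomes (1.94 and 3.23). Summed over the cells with Ccr2, genes of both kinds were thus higher. The cells that held each gene were not counted, so a mix of separate cells cannot be told apart from cells with both. No cell type is given to the cells with Ccr2. Of all cells in that class, 95.6% and 94.8% had a CD3 UMI, and the share among those with Ccr2 is not given. Cells with at least 2 innate lymphoid markers and no CD3 numbered 2 without and 0 with butyrate, and none held Ccr2. Cxcr6 was found in 12 of the 33 and 16 of the 37 cells. Cells with at least 2 NK cell markers, a class defined to hold no UMI of CD3 or Cd79a, numbered 12 without and 16 with butyrate. They held Ccr2 in 8 and 9, Cxcr3 in 4 and 6 and Cxcr6 in 1 and 5.

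Ccr6 was a B cell gene in these libraries and hardly differed between them. It was found in 1465 of 4218 B gate cells (34.7%, 33.3 to 36.2) without and 1403 of 3915 (35.8%, 34.3 to 37.4) with butyrate. The level was 100.2 and 103.0 CPM, and the log2 ratio of 0.04 had an interval from -0.05 to 0.12. Thinned, the shares were 17.3% and 17.8%. Cd8a+ cells held Ccr6 in only 0.379% and 0.523%, although these cells were deeper than B cells, with medians of 6636 and 7758 against 4410 and 4622 UMIs.

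Ccr6 was found in larger shares of the B gate cells with several B cell markers. Its share also rose with depth, from 21.0% in the shallowest to 50.4% in the deepest of 4 equal bins without butyrate. With butyrate it rose from 22.8% to 49.9%. The part of depth in the splits that follow was not tested. B gate cells with Ighd, the heavy chain of naive B cells, held it in 36.4% and 36.8%, against 14.6% and 20.9% without Ighd. For Cr2, the complement receptor CD21, the shares were 41.3% and 42.4% against 28.5% and 28.9%. For Fcer2a, the IgE receptor CD23, they were 36.9% and 37.4% against 30.1% and 30.8%. Zbtb32, a factor of memory and innate-like B cells, gave 25 of 46 and 21 of 40.

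Cells with at least 2 germinal center (GC) markers held Ccr6 in only 2 of 46 and 7 of 43, at median depths of 13392 and 10108 UMIs, above those of the B gate. With at least 3 such markers it was 1 of 39 and 1 of 30, so most of the 7 cells had just 2 markers. Cells with high Jchain held it in 2 of 38 and 0 of 6, against 35.0% and 35.9% of the other B gate cells. Between B gate cells with and without Ccr6, the first 5 genes in log2 ratio of CPM, ranked by the lower of both libraries, were Ccr1, a receptor of inflammatory chemokines (1.65 and 2.17), Crisp1 (2.36 and 1.65), Cdh17 (1.75 and 1.32), Cd300lf (1.36 and 1.09) and Fcrl5, an inhibitory receptor of marginal zone and B1 cells (1.18 and 1.01). Rgs1, which dampens chemokine receptor signals (-1.0 and -0.91), and Cd44 (-0.82 and -0.51) were lower. Cells with Ccr6 were deeper, with medians of 4981 and 5230 UMIs against 4187 and 4429. In cells without Ccr6, the genes Ccr1, Crisp1, Cdh17 and Cd300lf lay at only 0.713 to 3.28 CPM, so the size of their ratios is uncertain.

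Xcr1 was found in 6 cells without and 8 with butyrate, and in 3 of them with more than 2 UMIs. These 3 cells, all with butyrate, held 9, 4 and 4 Xcr1 UMIs. They also held 52, 50 and 24 UMIs of Irf8, 21, 34 and 14 of Naaa and 11, 7 and 7 of Batf3, genes of cDC1, and 259, 236 and 210 of H2-Ab1, which encodes MHC class II. At most 1 CD3 UMI was found in each. Their gates were more than 1 marker, Lyz2+ and Cd8a+, and cDC1 of mouse lymph nodes are known to express Cd8a. The highest cell without butyrate had 2 UMIs of Xcr1. The other cells had 1 UMI, among them 3 and 2 cells of the B gate, which should lack it. Of the cells with 1 UMI, 1 in each library had neither CD3 nor a gate marker and held several cDC1 genes, with 2 UMIs of Naaa and 2 of Batf3 without butyrate, and 3 of Irf8 and 1 of Batf3 with butyrate. With so few cells a difference between the libraries was not detectable.

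Other genes of the pathway were read from gene lists in the same comparison. Of 17 genes of Gi signalling and migration, 16 were measured in the B gate, 15 in the Cd4+, 13 in the Foxp3+ and 14 in the Cd8a+ gate, and none was past 1.5-fold in any of them, with list medians of 0.12, 0.09, -0.12 and 0.10. Of 17 other chemokine receptors, 0 of 5 were past it in the Cd8a+ gate, 1 of 7 in the B gate (Ccrl2, lower, at -0.98), 1 of 4 in the Cd4+ gate (Ccr9, higher, at 1.84) and 2 of 3 in the Foxp3+ gate (Ccr4 at 0.78 and Ccr7 at 0.75). The list medians were 0.00 in the Cd8a+ gate, -0.18 in the B gate, 0.02 in the Cd4+ gate and 0.75 in the Foxp3+ gate, beside 0.02, 0.05, 0.01 and -0.01 over all genes compared.

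Among 13 transcription factors, 7 were compared in the Cd4+ gate, where Irf8 was higher with butyrate, at 1.90, and Rora lower, at -0.60. Of the 10 compared in the Cd8a+ gate none was past 1.5-fold, with Eomes at 0.57 and Tbx21 at 0.50. Of 18 T cell state genes, 12 were compared in the Cd8a+ gate, and Pdcd1 (1.62), S100a4 (0.85) and Ifng (0.80) were higher. Of 11 compared in the Cd4+ gate, Ly6c2 was higher, at 1.59, whereas of 9 in the B gate Ly6c2 was lower, at -2.77, and Il18r1 higher, at 1.13. Of 12 in the Foxp3+ gate, Ccr7 (0.75) and Pdcd1 (0.81) were higher. Over all genes compared, 3.75% were past 1.5-fold in the Cd8a+, 4.82% in the Cd4+, 4.66% in the B and 9.04% in the Foxp3+ gate. Ly6c2, Ccr9 and Irf8 thus stood higher in the Cd4+ gate beside Cxcr3, and their part in its value was not tested.

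The ligands lay in few cells. Xcl1, the ligand of Xcr1, had 632 UMIs in 187 cells without and 1552 in 215 with butyrate, but the top 3 cells held 13.5% of the former and 49.3% of the latter, with 360 UMIs in 1 cell. Over the Cd8a+ gate, Xcl1 was at 19.8 and 85.2 CPM, a log2 ratio of 2.11, and Cxcl10, a ligand of Cxcr3, at 1.33 and 5.70, a log2 ratio of 2.10 from 15 and 73 UMIs. Over all cells Cxcl10 went the other way, with 266 UMIs without and 132 with butyrate. Cxcl9 had 141 UMIs without and 12 with butyrate, 78.0% and 66.7% of them in 3 cells. Cxcl16, the ligand of Cxcr6, had 350 and 332, and Ccl2, the ligand of Ccr2, 172 and 109, of which 76.2% and 88.1% lay in 3 cells. Cx3cl1 had 5 and 3 UMIs. Ccl20, the ligand of Ccr6, was not found in any cell kept. Cxcl11 was not analysed here.

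Across 16 points, the 6 gates and the 2 further classes in each library, other genes followed the receptors as follows by Pearson's r of log2(CPM + 10), over 12105 genes. The points share their libraries and the gates differ in size, so no p is given. Cxcr3 was most like Ndufa10 (0.92), Cst7 (0.92) and Surf1 (0.91), Cxcr6 like F2r (0.98), Actn2 (0.95) and Spin2c (0.93), and Ccr6 like Camk2d (0.95), Hip1r (0.93) and Apobec3 (0.93). Ccr2 was most like Serhl (0.97), Etv6 (0.97) and Phactr2 (0.96), Cx3cr1 like Tmem106a, Lst1 and Fgfr1 (0.99 each), and Xcr1, on 29 UMIs in all, like Loxl2 (0.99), 5031425F14Rik (0.98) and Zbtb46 (0.97). Among the receptors themselves, Cxcr3 and Cxcr6 had an r of 0.89 and Ccr2 and Cx3cr1 one of 0.79.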

How the data were processed

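Single-cell RNA was measured in 2 libraries, 1 per condition, each from 4 pooled mice. The authors deposited UMI counts of each gene in each cell, made with Cell Ranger 6.0.1 on mm10 per the submitters' processing notes, and these counts were not normalized. Cells were kept at no more than 10% mitochondrial UMIs and no fewer than 200 genes. Doublets were then removed by Scrublet score (Scanpy 1.11.5) at a rate of 0.8% for every 1000 cells. A gate needed 1 UMI of its marker and none of the other gates' markers (Cd4 was allowed with Foxp3). Shares have exact binomial intervals, ratios of summed counts exact conditional binomial ones, all at 95%, and a 0 allows up to 3 counts. Thinning to 2000 UMIs left out 101 and 58 cells. The ratio step was checked on simulated data.

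Genes named are the receptors, gene lists, and by rule the 5 genes with the highest ratio between cells with and without a receptor (the lower of both libraries, with at least 20 such cells in each) and the 3 most correlated genes. Members, gates and lists were chosen with earlier results of these data known. Of the cells with at least 2 markers of plasmacytoid dendritic cells, 149 of 154 and 177 of 184 had CD3 UMIs, as did 6 of 8 and 9 of 12 with 2 of cDC1, so these classes took no name. Alternatives covered filters, gates, thinning, a pseudocount and ratios of shares. No column was left unused. Results of some genes are not reported here. Python 3.11.15, NumPy 2.4.6, SciPy 1.17.1, pandas 2.3.3 and Matplotlib 3.10.9 were used.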

Additional observations from a re-analysis of the deposited data

Results flagged for a closer look

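A receptor's log2 ratio of CPM with over without butyrate differed in sign between gates, with both counting intervals clear of 0, in 3 pairs of gates. Cxcr3 was at 0.71 (0.15 to 1.29) in the Cd4+ gate and at -1.54 (-2.39 to -0.75) in the B gate. In the Cd8a+ gate it was at 0.29 (0.07 to 0.50), again opposite to the B gate. Cxcr6 was at 1.03 (0.19 to 1.91) in the Foxp3+ gate and at -0.65 (-1.31 to -0.02) in the Cd4+ gate. With 1 library per condition, none of these differences between gates was tested. The intervals take each UMI as a separate draw and do not cover the spread between cells, so being clear of 0 is a description. The Cd4+ gate, moreover, lost a call when each cell needed a CD3 UMI. The B gate value of Cxcr3 rests on 38 and 6 cells with high Jchain for 27 and 0 of its UMIs, and the Foxp3+ value of Cxcr6 on 8 and 7 cells.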

How the results depend on the processing

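No paired analysis was possible because each condition has 1 library and the libraries carry no shared replicate number. Of 117 log2 ratios under an alternative, 105 kept their direction. Some of these could not turn, since a pseudocount never changes the direction and the minimum of 200 UMIs left each ratio as it was. Thinning to 2000 UMIs lowered the shares, to 3.23% and 5.56% for Cxcr3 and 11.1% and 10.5% for Cxcr6 in the Cd8a+ gate and to 17.3% and 17.8% for Ccr6 in the B gate. As ratios of thinned shares, Cxcr3 in the Cd8a+ gate was at 0.78 and Cxcr6 at -0.082. In the Foxp3+ gate, Cxcr6 turned to -0.092 as a ratio of shares and Ccr6 to -0.31 as a ratio of thinned shares. The number of receptors past 1.5-fold was 0 in the B gate with no doublet removal or a pseudocount of 10 CPM. In the Cd4+ gate it was 1 with no doublet removal, at most 5% mitochondrial UMIs or a CD3 UMI in T cell gates. The CD3 rule kept 991 of 994 and 857 of 860 Cd4+ cells, and the receptor that fell within 1.5-fold under it is not given. With the pseudocount it was 0 there. In the Foxp3+ gate it was 0 with 2 UMIs of Cd79a or Lyz2. It was 1 there with the pseudocount or with ratios of shares, thinned or not. In the Cd8a+ gate it was 0 with the pseudocount and 2 with ratios of thinned shares. The pseudocount lies above the levels of Cxcr3 in the B gate (2.42 and 0.834 CPM) and Ccr2 in the Cd8a+ gate (2.13 and 3.90). At a minimum of 200 UMIs, no receptor was left to compare in the Cd4+ and Foxp3+ gates. In the B and Cd8a+ gates it left out the receptors called, and those left were within 1.5-fold. These counts cover the receptors alone, and the share of all genes past 1.5-fold under each alternative is not given. For Cxcr3 in the B gate, leaving out cells with high Jchain (-0.62) or with CD3 (-3.91) was chosen after seeing the data. The causes of these changes were not tested. Depth limits what can be said of receptors with 1 UMI per cell, and 1 library per condition limits every comparison.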

Other observations

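Ffar2, which encodes GPR43, a receptor for short-chain fatty acids, was higher in B gate cells with Ccr6 than in those without, with log2 ratios of CPM of 0.69 without and 0.92 with butyrate. Its levels were low, at 6.08 against 3.78 CPM without and 7.35 against 3.89 with butyrate, so the size of the ratios is uncertain. It ranked 12 among the genes ordered by this ratio and is named outside the rule, after its value was seen.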
